A study of Homo sapiens with 3 samples.

Results

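The 10 genes described here encode the core machinery that fuses, divides and removes mitochondria: MFN1, MFN2 and OPA1 for fusion, DNM1L, FIS1, MFF, MIEF1 and MIEF2 for fission, and PINK1 and BNIP3L for mitophagy. They were chosen by name from the 63241 genes of a ribosome profiling (Ribo-seq) table, and all 10 were present and passed the filter on low counts, which 19820 genes passed. Ribo-seq sequences the stretches of mRNA that ribosomes protect from nuclease. The scaled count of a gene thus reports its share of the ribosome footprints in a library, not a number of ribosomes. Cells were HEK293T, which derive from human embryonic kidney and make SV40 large T antigen, with stable lentiviral expression of WT, G245S or R273H p53 under puromycin selection, both mutations being hotspot changes in the DNA-binding domain. Each group was 3 separate 10 cm dishes of 1 cell line, treated with cycloheximide for 2 min before lysis, so a difference between the expressed p53 and a difference between the lines, or in how the dishes of a line were handled, cannot be told apart. GEO's labels describe the cells both as stable and as transiently expressing p53, and the treatment label of both mutants names a wild-type construct. Groups were therefore taken from the sample titles.

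Mitochondria form a network that is constantly joined and cut. The mitofusins MFN1 and MFN2 are GTPases that tether and merge outer membranes, and OPA1, a GTPase of the inner membrane, merges inner membranes and keeps cristae closed. For fission, the cytosolic dynamin DNM1L (DRP1) is brought to the outer membrane by the receptors MFF, MIEF1 (MiD51), MIEF2 (MiD49) and FIS1, assembles into rings and constricts the organelle. PINK1 is a kinase that accumulates on damaged mitochondria and marks them for ubiquitin-dependent mitophagy, whereas BNIP3L (NIX) is an outer-membrane receptor that binds autophagosomes directly.

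The libraries held 18.8 to 20.0 M estimated counts in WT, 18.7 to 21.6 M in G245S and 23.3 to 24.6 M in R273H. R273H was thus the deepest group, and the part of depth in the number of genes called was not tested. As a check of the labels, the p53 target MDM2, a ubiquitin ligase, had mean CPM (counts scaled to a common library total) of 860.3 in WT, 76.82 in G245S and 76.71 in R273H, and CDKN1A, the cell cycle inhibitor p21, had 61.1, 16.1 and 13.9 CPM. These genes set WT apart from the mutants. Between the mutants their adjusted p was 0.981 and 0.088 in edgeR's quasi-likelihood test, so which mutant is which was not checked. The epithelial keratin KRT8 had group means of 33.9, 35.3 and 43.45 CPM in WT, G245S and R273H, KRT18 109.6 to 116 CPM and the kidney factor PAX2 5.43 to 6.92 CPM. The defining markers of blood, endothelium and liver (PTPRC, PECAM1 and ALB) were at or below 0.163 CPM in every library, and the collagen gene COL1A1 had means of 32.5 CPM in WT, 28.2 in G245S and 27.5 in R273H. The part of these genes' levels in the results below was not tested. Libraries also differed in how levels ran with coding length and GC content. Spearman's rho between coding length and a gene's deviation from its mean over the libraries was -0.177 to -0.139 in the WT dishes, -0.0114 to 0.115 in G245S and 0.139 to 0.195 in R273H, over 10886 genes. With GC content, rho was -0.185 to 0.26 in WT, -0.184 to 0.345 in G245S and -0.423 to -0.138 in R273H. It was lowest in dish 3 of each group. The length values move with the groups, and the GC values differ between the mutants and between dishes. Each gene below is therefore given also after a smooth trend over coding length and GC content was taken out.

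Relative to coding length, FIS1 and MFF had the densest footprints of the 10 genes in WT cells and MIEF2 the sparsest. As CPM per kb of coding region, the WT means (± SD, n = 3 dishes) were 127 ± 3.24 for FIS1, 117 ± 2.98 for MFF, 59.4 ± 0.140 for DNM1L and 58.2 ± 1.24 for BNIP3L. The fusion GTPases were at 49.4 ± 1.78 for MFN2, 31.5 ± 1.01 for MFN1 and 26.6 ± 0.647 for OPA1, with the DNM1L receptor MIEF1 at 45.7 ± 1.39 between them. PINK1 followed with 21.0 ± 0.117 and MIEF2 with 7.84 ± 0.329. Within the WT order, DNM1L and BNIP3L were the only neighbours whose dishes overlapped. In both mutants MFF was above FIS1 (115 ± 0.665 against 100.2 ± 4.25 in G245S, and 119.7 ± 0.481 against 98.7 ± 2.75 in R273H), and BNIP3L was below MFN2 and MIEF1, at 43.3 ± 3.01 and 44.6 ± 0.0338. No other pair of genes changed order between the groups. In G245S the dishes of MFN2 and MIEF1 overlapped, and in R273H no neighbours did.

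**Figure D1:**
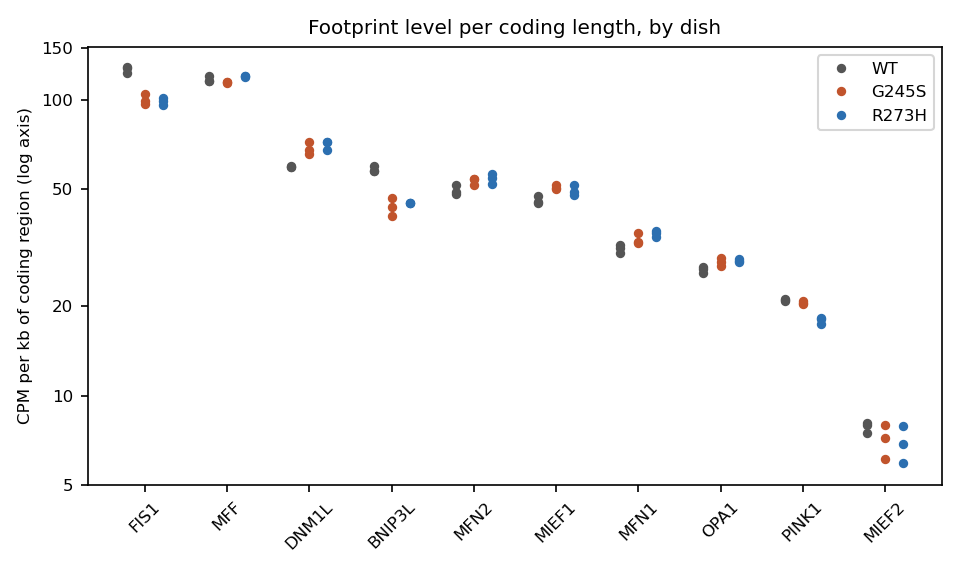
Footprint level per kb of coding region (CPM per kb, log axis) of the 10 genes in the 9 dishes, ordered by the WT mean; each point is a dish and colours mark WT, G245S and R273H. FIS1 was highest in WT at 127, MFF was highest in both mutants at 115 and 119.7, and MIEF2 was lowest in each group.

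Against WT, 5 of the 10 genes passed the threshold in G245S and 8 in R273H, and no gene passed it in opposite directions. In G245S, MFN2, DNM1L and MIEF1 rose and FIS1 and BNIP3L fell. In R273H, MFN1, MFN2, OPA1, DNM1L and MIEF1 rose and FIS1, PINK1 and BNIP3L fell. The changes were of 7.15% to 25.4% in size. Here and below, called means a Benjamini-Hochberg adjusted p under 0.05 over all 19820 genes in edgeR's quasi-likelihood test, unless another fit is named. Over all genes, the called share was 24.7% for G245S (12.6% upward and 12.1% downward) and 28.8% for R273H (14.2% upward and 14.6% downward). The share called rose with expression. The 10 genes lie in 5 of the 10 bins of expression, where 18.5% to 53.9% of genes were called in G245S and 22.5% to 59.3% in R273H, so a count of 5 of 10 in G245S was near that background. The median log2 fold change of the 10 genes was 0.029 in G245S and 0.065 in R273H, beside -7e-04 and -0.0024 over all genes. Both contrasts used the same 3 WT libraries, so their values are given side by side and are not independent of each other. Each change is measured against the rest of its own library, and a change in mRNA level cannot be told apart from a change in ribosomes per mRNA, since no matched RNA-seq was used here.

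**Figure D2:**
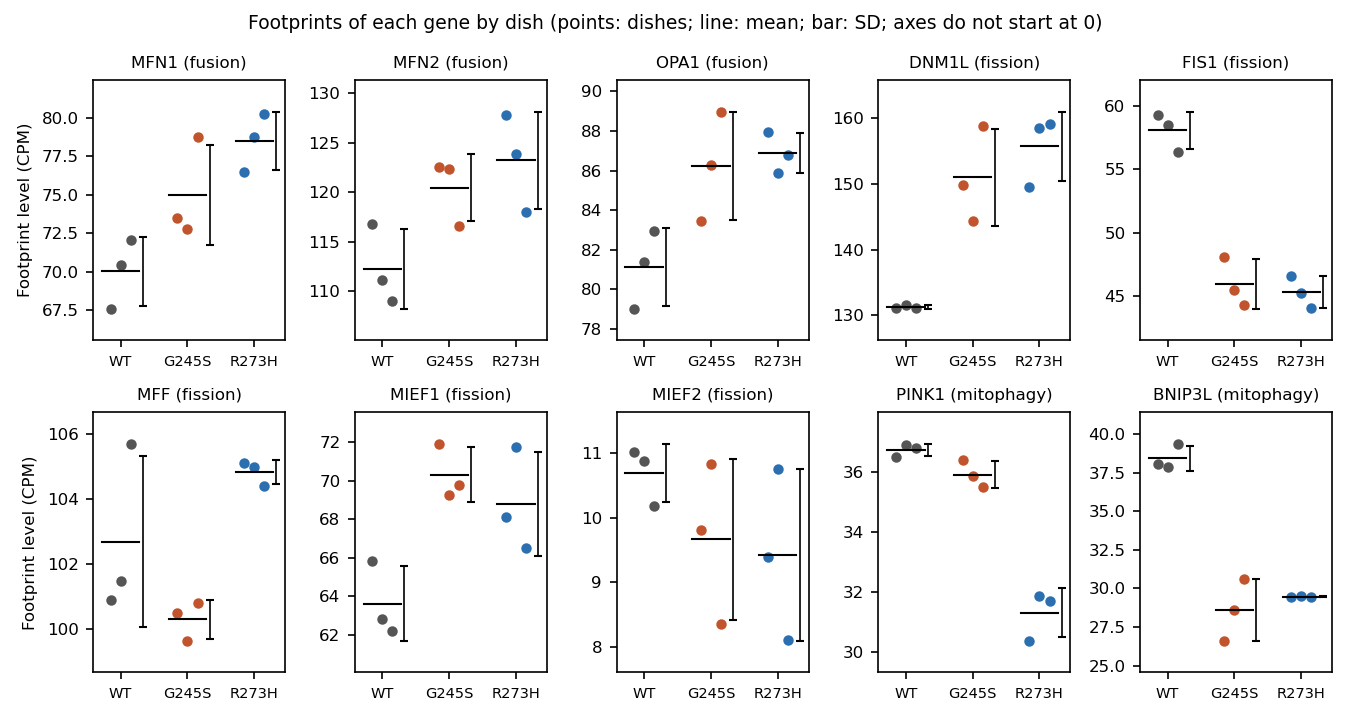
Footprint level (CPM; axes do not start at 0) of each gene in the 3 dishes of WT, G245S and R273H; points are dishes, lines are means and bars are SDs, n = 3. The FIS1, BNIP3L and DNM1L dishes of both mutants lie outside the WT range, R273H alone is low for PINK1, and the MIEF2 dishes overlap in all groups.

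Among the fusion genes, MFN1, the mitofusin with the stronger tethering activity, is on chromosome 3 (positions 179347709 to 179394936, plus strand, GRCh38) with 18 exons and a coding region of 2226 nt. Its level was 67.6, 70.4 and 72.1 CPM in the WT dishes, 73.5, 72.8 and 78.7 in G245S, and 76.5, 78.8 and 80.3 in R273H. The mutant dishes were all above the WT dishes, and R273H was further away. In R273H the rise was 12.1%, or 0.17 on the log2 scale (SE 0.0395, adjusted p = 0.00212). In G245S the difference of 7.25% did not pass the test (log2 0.10, 95% interval 0.018 to 0.184, adjusted p = 0.0699). It passed in the fit with the length and GC trend removed, which tested 13615 genes, at the same estimate (0.10, adjusted p = 0.0149). It also passed with dish number as a further term in the fit (adjusted p = 0.0249). MFN1 shares 15.48% of the 30-base words of its coding region with other annotated genes, mostly with the pseudogene MFN1P1, which had a mean of at most 0.359 CPM in any group.

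MFN2, the mitofusin that also links mitochondria to the endoplasmic reticulum, lies on chromosome 1 (11980181 to 12015211, plus strand, 19 exons, 2274 coding nt). It had 116.8, 111.1 and 109.0 CPM in WT, 122.5, 122.3 and 116.6 in G245S, and 127.8, 123.8 and 118.0 in R273H. The lowest G245S dish overlapped the highest WT dish, whereas the R273H dishes were all above WT. The rise was 7.18% in G245S (log2 0.10, SE 0.0362, adjusted p = 0.0427) and 9.72% in R273H (log2 0.13, SE 0.0354, adjusted p = 0.00491). The G245S call was close to the threshold. It was lost without WT dish 2 or 3, G245S dish 1 or 2, or R273H dish 2, which enters through the shared spread, and under DESeq2, whose adjusted p was 0.0810. The R273H call was lost without R273H dish 1 (adjusted p = 0.052).

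OPA1 is on chromosome 3 (193593144 to 193697811, plus strand, 31 exons) and has the longest coding region of the 10 genes, 3048 nt. Levels were 79.0, 81.4 and 82.9 CPM in WT, 83.5, 86.3 and 89.0 in G245S, and 88.0, 85.9 and 86.8 in R273H. All mutant dishes were above the WT dishes by a small margin. The call in R273H (7.15%, log2 0.10, SE 0.0358, adjusted p = 0.0363) was lost when the length and GC trend was removed (log2 0.04, adjusted p = 0.275), under DESeq2 (adjusted p = 0.0860), and without WT dish 1 or 2 or any 1 of the R273H dishes. In G245S the difference was 6.43% (log2 0.09, 95% interval 0.015 to 0.165, adjusted p = 0.0734). That call was gained with the trend removed, at the same estimate (0.09, adjusted p = 0.0227), and with dish number as a further term (adjusted p = 0.0354). Summed over MFN1, MFN2 and OPA1, the fusion genes had 262.9 to 264.0 CPM in the WT dishes, 279.5 to 284.3 in G245S and 285.1 to 292.2 in R273H.

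DNM1L, the GTPase that cuts mitochondria, showed the largest rise of the 10 genes in both mutants. The gene is on chromosome 12 (32679200 to 32745650, plus strand, 20 exons, 2211 coding nt). Its level was 131.1, 131.6 and 131.1 CPM in WT, 149.8, 144.3 and 158.9 in G245S, and 149.6, 158.5 and 159.1 in R273H. The WT dishes were almost level, and every mutant dish was well above them. The rise was 15.1% in G245S (log2 0.20, SE 0.0346, adjusted p = 6.11e-05) and 18.6% in R273H (log2 0.25, SE 0.0339, adjusted p = 2.36e-06). It was 0.20 in both on the log2 scale with the trend removed. YARS2, a mitochondrial tyrosyl-tRNA synthetase gene that overlaps DNM1L on the other strand, rose too (log2 0.14 and 0.16, adjusted p = 0.0203 and 0.00555). The DNM1L coding region holds no 30-base word of another gene, but whether the counting used strand is not given in the sources used here.

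FIS1, an outer-membrane protein of the fission group, moved the other way. It is the shortest of the 10 genes, with 459 coding nt on chromosome 7 (101239458 to 101252316, minus strand, 5 exons). Levels were 59.3, 58.5 and 56.4 CPM in WT, 48.1, 45.5 and 44.3 in G245S, and 46.6, 45.3 and 44.1 in R273H. No mutant dish reached the lowest WT dish. FIS1 fell by 20.9% in G245S (log2 fold change -0.34, SE 0.0453, adjusted p = 1.69e-06) and by 21.9% in R273H (-0.36, SE 0.0441, adjusted p = 3.78e-07). Short genes were lower in both mutants in general, and the fitted trend at the length and GC content of FIS1 was -0.06 in G245S and -0.10 in R273H. With that trend removed, FIS1 was still called, at -0.28 and -0.26. Its coding region shares no 30-base word with another gene and no annotated gene overlaps it. The ratio of DNM1L to FIS1 counts within a library, which does not depend on the normalization, was 2.21 to 2.32 in the WT dishes, 3.11 to 3.58 in G245S and 3.21 to 3.61 in R273H. No ratio given here had the length and GC trend removed, which for DNM1L was 0.002 in G245S and 0.048 in R273H. Against MFN2, ratios overlapped between the groups. For DNM1L they were 1.12 to 1.2 in WT, 1.18 to 1.36 in G245S and 1.17 to 1.35 in R273H. For MFN1 they were 0.579 to 0.662, 0.595 to 0.675 and 0.598 to 0.68.

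The receptors of DNM1L did not move together. MFF, a main receptor of DNM1L, is on chromosome 2 (227325151 to 227357833, plus strand, 9 exons, 876 coding nt). Its levels were 100.9, 101.5 and 105.7 CPM in WT, 100.5, 99.7 and 100.8 in G245S, and 105.1, 105.0 and 104.4 in R273H. The G245S dishes lay just under the WT range and the R273H dishes inside it. MFF did not pass the test in either mutant. Its 95% intervals were -0.101 to 0.034 in G245S and -0.035 to 0.096 in R273H on the log2 scale, which leave room for a change of about that size. It shares 24.32% of its coding 30-base words with other genes, mainly the pseudogene MFFP2, which had at most 0.175 CPM as a group mean.

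MIEF1 rose in both mutants. It is on chromosome 22 (39499432 to 39518132, plus strand, 6 exons, 1392 coding nt). Levels were 65.8, 62.8 and 62.2 CPM in WT, 71.9, 69.3 and 69.8 in G245S, and 68.1, 71.8 and 66.5 in R273H. All mutant dishes were above the highest WT dish, by little in R273H. The rise was 10.4% in G245S (log2 0.14, SE 0.041, adjusted p = 0.0105) and 8.12% in R273H (log2 0.11, SE 0.0402, adjusted p = 0.0348). The R273H call was lost under DESeq2 (adjusted p = 0.0839) and without WT dish 2 or 3 or R273H dish 1 or 2. With the trend removed it was kept, at 0.14 with an adjusted p of 0.00142. The leader of the MIEF1 mRNA holds a second coding gene, MIURF, which encodes a microprotein of the mitochondrial ribosome, and the counts of MIEF1 were not whole in any library. MIURF was assigned 1.68% to 4.88% of the counts of the pair. Its counts were not whole in any library either, so the split between the genes rests on how reads were assigned. Footprints on the leader may thus be counted for MIEF1, and this was not tested. MIURF was at 3.37, 2.89 and 2.95 CPM in WT, 3.45, 3.11 and 2.67 in G245S, and 2.07, 2.64 and 1.13 in R273H. As assigned, it fell in R273H (log2 -0.66, adjusted p = 0.0229). MIURF was picked out after its values were seen, and its level rests on 26.3 to 68.0 estimated counts a library. The sum of MIEF1 and MIURF was 65.2 to 69.2 CPM in WT, 72.4 to 75.4 in G245S and 67.6 to 74.4 in R273H, so that for the pair together the R273H dishes overlapped WT.

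MIEF2, the paralog of MIEF1, was the least covered of the 10 genes, with a mean of 208.8 counts a library. It is on chromosome 17 (18260597 to 18266552, plus strand, 4 exons, 1365 coding nt). It had 11.0, 10.9 and 10.2 CPM in WT, 9.81, 10.8 and 8.36 in G245S, and 9.39, 10.8 and 8.11 in R273H. Dishes overlapped between all groups. Its difference of -0.15 in G245S (95% interval -0.374 to 0.073, adjusted p = 0.345) and of -0.18 in R273H (-0.398 to 0.036, adjusted p = 0.213) was not detectable at this depth. The ratio of MIEF1 to MIEF2 counts was 5.77 to 6.11 in WT, 6.39 to 8.35 in G245S and 6.67 to 8.20 in R273H. Over all 5 fission genes, the summed level was 365.4 to 368.1 CPM in WT, 369.5 to 382.1 in G245S and 378.9 to 391.4 in R273H. Within that sum the fall of FIS1 was smaller in CPM than the rise of DNM1L, and every mutant dish was above every WT dish.

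BNIP3L had the largest change of the 10 genes in either mutant. The gene is on chromosome 8 (26383054 to 26505636, plus strand, 6 exons, 660 coding nt). Levels were 38.0, 37.9 and 39.4 CPM in WT, 26.6, 28.6 and 30.6 in G245S, and 29.44, 29.48 and 29.46 in R273H. All mutant dishes were far under the lowest WT dish, and the R273H dishes were almost level. BNIP3L fell by 25.4% in G245S (log2 fold change -0.42, SE 0.0547, adjusted p = 1.01e-06) and by 23.3% in R273H (-0.38, SE 0.0528, adjusted p = 2.29e-06). The fitted length and GC trend gave -0.05 and -0.06 for a gene of its make-up, and with it removed the changes were -0.37 and -0.32, both called. In G245S it was also the one gene of the 10 called when edgeR tested for a fold change beyond 1.2 (glmTreat), with an adjusted p of 0.0299. Its coding region shares no 30-base word with another gene and its counts were whole in all 9 libraries. PNMA2, on the other strand within its span, had group means of 15.8, 16.5 and 15.8 CPM in WT, G245S and R273H.

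PINK1 was the gene in which the mutants differed. It lies on chromosome 1 (20633458 to 20651511, plus strand, 8 exons, 1746 coding nt). Levels were 36.48, 36.88 and 36.78 CPM in WT, 36.37, 35.84 and 35.49 in G245S, and 30.4, 31.9 and 31.7 in R273H. The G245S dishes lay just under the WT range and the R273H dishes well under both. PINK1 fell by 14.7% in R273H (log2 fold change -0.23, SE 0.0487, adjusted p = 0.00064), also with the trend removed (-0.21, adjusted p = 0.000538). In G245S its difference was -0.03 (95% interval -0.133 to 0.068, adjusted p = 0.687). PINK1 contains the miRNA gene MIR6084, to which 4.718% of its coding 30-base words also belong and which had group means of 1.41, 0.974 and 0.716 CPM in WT, G245S and R273H. The antisense gene PINK1-AS had at most 0.545 CPM as a group mean. Together PINK1 and BNIP3L had 74.5 to 76.1 CPM in the WT dishes, 63.0 to 66.1 in G245S and 59.8 to 61.4 in R273H. The ratio of PINK1 to BNIP3L counts was 0.934 to 0.974 in WT, 1.16 to 1.37 in G245S and 1.03 to 1.08 in R273H, with no overlap between the groups.

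**Figure D3:**
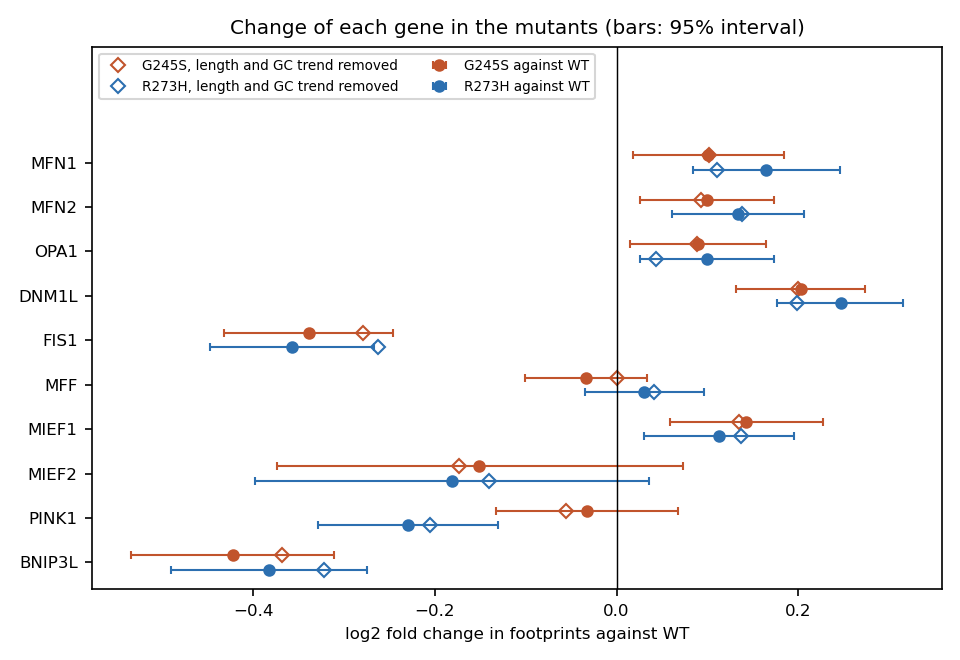
Log2 fold change of footprints against WT for each of the 10 genes in G245S and R273H; filled points are edgeR estimates with 95% intervals, open diamonds the estimates after the trend over length and GC was removed. BNIP3L (-0.42 and -0.38) and FIS1 (-0.34 and -0.36) lie to the left of 0 and DNM1L (0.20 and 0.25) to the right in both mutants, and PINK1 is left of 0 beyond its interval in R273H alone.

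The direct comparison of the mutants called 1 of the 10 genes, against 2.59% of all genes (1.86% higher in G245S and 0.732% lower). That background rests on 513 genes, a number that ran from 162 without G245S dish 1 to 712 without G245S dish 3. That gene was PINK1, which was 14.6% higher in G245S than in R273H (log2 0.20, SE 0.0487, adjusted p = 0.0241), with all G245S dishes above all R273H dishes. The call was lost with the length and GC trend removed (log2 0.15, adjusted p = 0.0745), under DESeq2 (adjusted p = 0.0561), and without G245S dish 1 or 2 or any 1 of the R273H dishes. With dish number as a further term it was kept (adjusted p = 0.00793), but not with the trend removed as well (0.0509). For the other 9 genes the estimates were -0.064 to 0.031. The widest of their intervals was that of MIEF2, -0.19 to 0.251, and the narrowest that of MFF, -0.13 to 0.002. For the 3 genes with the largest changes against WT, the intervals of the difference between mutants were -0.153 to 0.073 for BNIP3L, -0.075 to 0.112 for FIS1 and -0.112 to 0.025 for DNM1L. A p that misses the threshold does not show that the mutants acted alike on these genes. MFN1, OPA1 and PINK1 passed against WT in R273H only, and of these the difference between mutants was called for PINK1 alone (adjusted p = 0.449 for MFN1 and 0.934 for OPA1).

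Coding length separated the genes in part. The 4 longest genes (MFN1, MFN2, OPA1 and DNM1L, from 2211 to 3048 coding nt) had positive estimates in both mutants, and the shortest pair, FIS1 and BNIP3L (459 and 660 nt), had negative ones. Between them, genes of like length went different ways, as MIEF1 (1392 nt) was called higher in both and MIEF2 (1365 nt) had negative estimates that were not called. The fitted trend was between -0.095 and 0.056 on the log2 scale for these 10 genes in R273H and between -0.059 and 0.025 in G245S, smaller than the changes of BNIP3L, FIS1 and DNM1L.

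**Figure D4:**
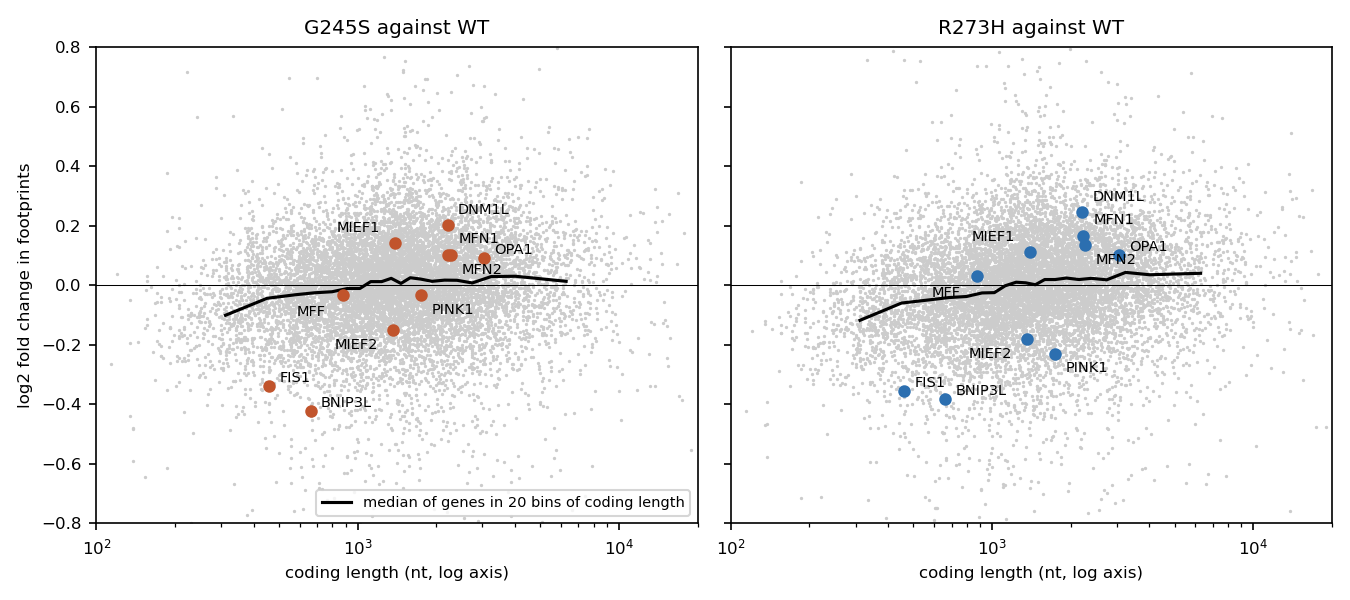
Log2 fold change of footprints against coding length (nt, log axis) for G245S and R273H against WT; grey points are other genes with a mean of at least 5 CPM, the line is the median in 20 bins of length and coloured points are the 10 genes (differences beyond 0.8 are not drawn). The line is below 0 for short genes in both mutants, and FIS1 and BNIP3L lie further below it, at -0.34 and -0.42 in G245S and -0.36 and -0.38 in R273H.

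The hexamer GGCTGG, from the core of the RNA consensus that the study derived for p53 by crosslinking and immunoprecipitation, was searched for on the sense strand of the annotated 3′ UTRs (GENCODE v44 canonical transcripts). The study placed this consensus in the antisense Alu repeat, which is common in human 3′ UTRs. It interprets the motif as a mark of structured RNA derived from Alu, and not as an element recognized by its sequence. Repeats were not annotated here. It was present in 6 of the 10 genes, beside 43.29% of 19549 protein-coding genes with a 3′ UTR. On the other strand (CCAGCC) it was present in MFN2, OPA1, DNM1L, MIEF1 and MIEF2, 5 of the 10, beside 45.76% of all. MFN1 and MIEF1 had 3 matches each, MIEF2 and PINK1 had 2, and MFN2 and DNM1L had 1, while OPA1, FIS1, MFF and BNIP3L had 0. The most per length were in PINK1, whose 3′ UTR of 820 nt gives 2.439 matches per kb, against 0.5893 over all 3′ UTRs. Matches from 5 of the genes are printed with 12 bases on each side and the hexamer in capitals. They show what surrounds it in the gene called between mutants and in genes called higher. They lie at chr1:20650788-20650817 and chr1:20650910-20650939 for PINK1, chr1:12012430-12012459 for MFN2, chr12:32744420-32744449 for DNM1L, chr22:39514860-39514889 for MIEF1 (1 of its 3) and chr3:179393974-179394003 and chr3:179394046-179394075 for MFN1 (2 of its 3), all on the plus strand of GRCh38 and in the order of the lines.
PINK1 site 1: cagcgcagagagGGCTGGttagccggaaaa
PINK1 site 2: tctagtagatgaGGCTGGactgaggagggg
MFN2 site: ggggacgttggtGGCTGGctgaggtgcatg
DNM1L site: aaaaacacccaaGGCTGGgcgtggtggcac
MIEF1 site: ttctgggagtgaGGCTGGtagaagagttgg
MFN1 site 1: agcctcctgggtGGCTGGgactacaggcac
MFN1 site 2: ccatgttgtgcaGGCTGGtcttgaactcac
The central 18 bases of each printed MFN1 window were also in the 3′ UTR of 1 other protein-coding gene. Those of the printed PINK1, MFN2, DNM1L and MIEF1 windows, and of the MIEF1 and MIEF2 matches not printed, were in 0 others. Only exact matches of all 18 bases were counted. A low count therefore does not show that a window is particular to its gene or lies outside a repeat. Of the 6 genes with the hexamer, R273H called 4 higher and 1 lower, and of the 4 without it, 1 higher and 2 lower. The genes that fell in both mutants, FIS1 and BNIP3L, had no match in UTRs of 334 and 2715 nt. Among all tested protein-coding genes, 16% with the hexamer and 16.8% without it were called higher in R273H, and 16.6% and 18.5% lower. In G245S, 14.5% and 16.2% were called higher, and 14% and 16.3% lower. Genes with the hexamer had a median 3′ UTR of 2282 nt, against 720 nt for those without it. A match to these letters is a description of the sequence and not a binding site.

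The other genes of the pathway were grouped in 6 lists of 77 genes, of which 76 were tested. Upward calls numbered 12 in G245S and 16 in R273H, and downward calls 10 and 11, so that 28.9% and 35.5% were called, beside 24.7% and 28.8% of all genes. Their median log2 fold changes were 0.003 and 0.009. Calls shared by the mutants were 9 upward and 7 downward, with 0 in opposite directions. Both contrasts used the same WT libraries, so shared directions are not independent, and the share over all genes is not given here.

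Among the proteases and scaffolds that process OPA1 and keep the inner membrane in order, the genes that passed the test were all higher. Of 8 genes, 4 rose in G245S and 5 in R273H and 0 fell in either, with medians of 0.107 and 0.136. These genes lie in bins 8 to 10 of expression, where 36.5% to 53.9% of all genes were called in G245S. In R273H that share was 39.2% to 59.3%, so the number called was near the background. The prohibitins PHB1 and PHB2 form the ring-shaped scaffold of the inner membrane. PHB1 had 313.5 ± 2.98 CPM in WT, 358.5 ± 8.48 in G245S and 352.3 ± 3.97 in R273H (log2 change 0.19 and 0.17, adjusted p = 1.12e-06 and 6.64e-06). PHB2 rose by 10.9% in G245S (adjusted p = 3.6e-05) and by 5.66% in R273H (adjusted p = 0.0142), the latter call being lost without WT dish 1 (0.0562) or R273H dish 2 (0.062). AFG3L2, a subunit of the matrix AAA protease, rose by 14.2% and 13% (adjusted p = 0.000303 and 5e-04).

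Other fusion and fission factors were mixed. Of 16 genes, 5 rose in G245S and 3 in R273H, while 1 fell in each, with medians of 0.04 and 0.028. The called share was 37.5% in G245S and 25% in R273H, beside 24.7% and 28.8% of all genes. PGAM5, a mitochondrial phosphatase that acts on DNM1L, rose from 71.0 ± 2.16 CPM in WT to 88.7 ± 2.97 in G245S and 84.3 ± 1.39 in R273H (log2 0.32 and 0.25, adjusted p = 2.69e-07 and 1.02e-05). INF2, the formin that assembles actin at fission sites, rose by 19.3% and 11.9% (adjusted p = 0.00103 and 0.026). The R273H call of INF2 was lost under DESeq2 (adjusted p = 0.0796), without WT dish 2 (0.206) and without R273H dish 1 or 2 (0.0558 and 0.0909). MTFR1L, an outer-membrane regulator of mitochondrial shape, fell by 13% and 18.3% (adjusted p = 0.00869 and 0.000167), the G245S call being lost without G245S dish 3 (0.0686).

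In the ubiquitin-dependent mitophagy list, the genes called in G245S were all lower. Of 11 genes, 4 fell in each mutant, 0 rose in G245S and 1 rose in R273H, with medians of -0.097 and -0.062. The called share was 36.4% in G245S and 45.5% in R273H, beside 24.7% and 28.8% of all genes. In the highest bin of expression, which holds VCP, 53.9% and 59.3% of all genes were called. OPTN, an autophagy receptor that binds ubiquitin chains, had the largest change of the named pathway genes, from 21.9, 21.4 and 24.1 CPM in WT to 14.1, 14.9 and 14.9 in G245S and 16.1, 15.4 and 16.5 in R273H. Its mutant dishes were all below the WT dishes, and it fell by 34.7% in G245S and 28.8% in R273H (log2 -0.61 and -0.49, adjusted p = 1.33e-07 and 2.3e-06). OPTN was called in both mutants also when a fold change beyond 1.2 was tested (adjusted p = 0.000234 and 0.01). The receptor NBR1 fell by 14% in both (adjusted p = 2.18e-05 and 1.31e-05). VCP, the ATPase that extracts ubiquitinated proteins such as mitofusins from the membrane, fell by 7.05% and 10.1% (adjusted p = 0.000687 and 4.48e-06).

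The other genes of receptor-mediated mitophagy were mixed. Of 8 genes, 2 fell in G245S, and in R273H 1 rose and 1 fell, so 25% were called in each, beside 24.7% and 28.8% of all genes. BNIP3, its closest paralog, had 47.8 ± 0.919 CPM in WT, 50.6 ± 1.96 in G245S and 53.01 ± 1.82 in R273H, and rose in R273H (log2 0.15, adjusted p = 0.012, or 0.0525 without WT dish 2 and 0.0579 without R273H dish 3) but not past the threshold in G245S (0.08, adjusted p = 0.204). With the trend removed, the G245S value was 0.14 and was called (adjusted p = 0.00617). FKBP8, an outer-membrane receptor, fell by 9.97% and 15.5% (adjusted p = 0.00162 and 3.18e-06). FUNDC1, a receptor active in hypoxia, fell by 11.8% in G245S (adjusted p = 0.00862, or 0.0682 without G245S dish 2), and its difference in R273H was -0.08 (adjusted p = 0.259).

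Of 5 mitochondrial transport genes, 0 were called in G245S by edgeR and 0 by DESeq2, although 3 had an unadjusted p under 0.05. In R273H, RHOT1 (Miro1), which links mitochondria to kinesin, rose by 12% (adjusted p = 0.0276), a call that was lost with the trend removed (0.0917), under DESeq2 (0.0907), without WT dish 2 (0.14) and without R273H dish 2 or 3 (0.109 and 0.0796). Of 28 core autophagy genes tested, 3 rose and 3 fell in G245S, whereas 5 rose and 5 fell in R273H. The called shares were 21.4% and 35.7%, beside 24.7% and 28.8% of all genes. ATG9A, the membrane scramblase of forming autophagosomes, rose by 25.5% and 15.6% (adjusted p = 3.34e-07 and 0.000166), and PIK3R4, a subunit of the lipid kinase complex, by 14.6% and 22.3% (adjusted p = 0.000677 and 2.12e-06). GABARAPL2, which coats autophagosomes, fell by 16.7% and 14.4% (adjusted p = 6.93e-08 and 6.41e-07). Between the mutants, 0 of the 76 genes were called by edgeR and 0 by DESeq2, with 16 at an unadjusted p under 0.05.

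**Figure D5:**
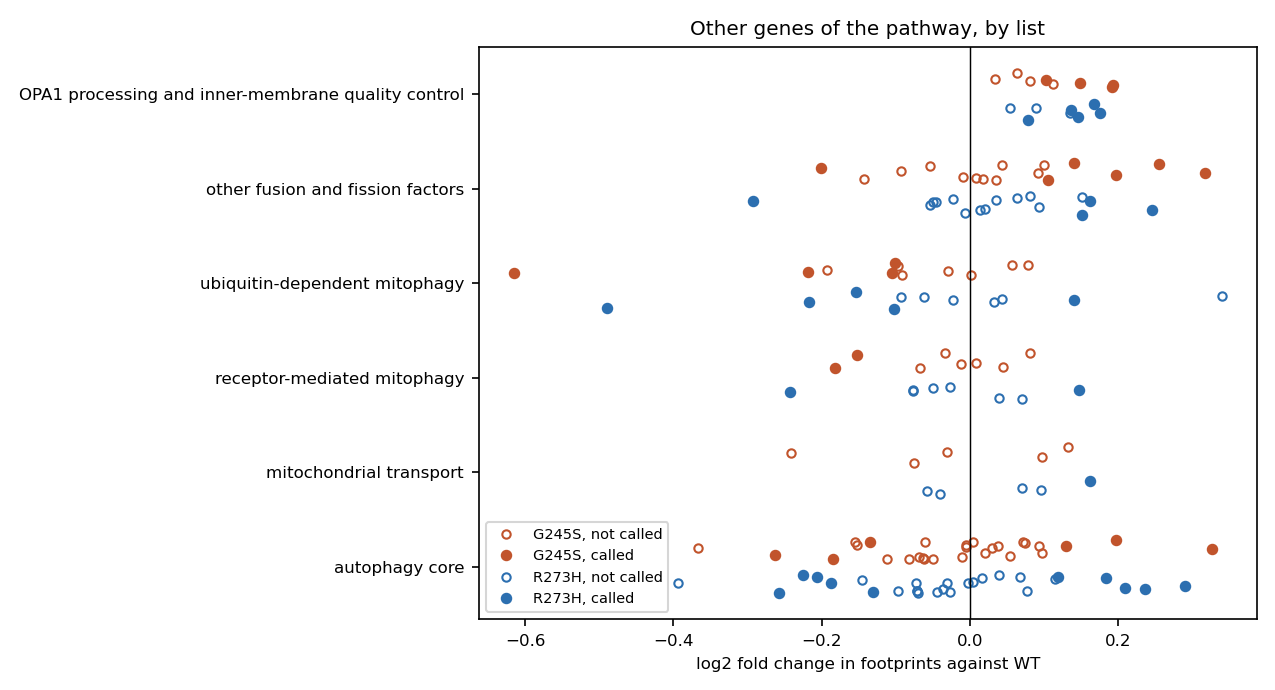
Log2 fold change of footprints against WT for the 76 tested genes of 6 pathway lists in G245S and R273H; filled points were called at an adjusted p under 0.05 and vertical scatter within a row has no meaning. The OPA1 processing genes all lie to the right of 0 in both mutants, and OPTN is the leftmost point at -0.61 in G245S and -0.49 in R273H.

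Over the 9 libraries, the genes whose levels were most like those of BNIP3L were ASTN2, PRKAB1, CEP120, RALGAPB and MXD1, with Pearson's r of log2 CPM of 0.984 to 0.988 among the 12655 genes that averaged 100 counts or more. Since the 9 libraries fall into WT and mutant groups, such an r mostly describes a shared step between them and carries no test. These genes fell further than BNIP3L, apart from RALGAPB. Their log2 fold changes were -2.51 and -2.36 for ASTN2, -1 and -0.96 for PRKAB1, a subunit of the energy sensor AMPK, -0.67 and -0.73 for CEP120, -0.58 and -0.59 for MXD1, and -0.40 and -0.33 for RALGAPB in G245S and R273H.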

How the data were processed

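The deposited table held expected counts per gene for 9 Ribo-seq libraries, which the authors made by trimming with Trim Galore and Cutadapt, extracting molecular identifiers with UMI-tools where applicable, removing ribosomal RNA and aligning to GRCh38 with STAR. The counting tool, annotation release and use of strand are not given in the sources used here. Of the nonzero values, 61.5% to 63.7% were not whole, so counts were rounded. For single genes, a count within 0.01 of a whole number was taken as whole. Genes were filtered with filterByExpr, normalized by TMM and tested two-sided in edgeR 4.0.16 (R 4.3.3; robust quasi-likelihood fit of all 9 libraries, group as the only term, Benjamini-Hochberg over 19820 genes). CPM used TMM library sizes; SDs are over 3 dishes. p-values measure the spread between dishes of 1 line per group. Alternatives included DESeq2 1.42.0, RLE and upper-quartile scaling, other filters, a fold change beyond 1.2, dish number as a block, leaving out each dish, and offsets from a mgcv 1.9.3 trend in coding length and GC content. Fits with that trend removed tested only the 13615 protein-coding genes with a coding length, and their adjusted p is over those. Positions, coding lengths, shared 30-base words and 3′ UTRs came from GENCODE v44, to which 99.09% of genes matched. The fit was tested on simulated data. The genes named were all 10 members, up to 3 called genes per list with the largest change (mean count at least 100), the 5 genes most like the member with the largest change, and MDM2 and CDKN1A. Overlapping and look-alike genes were named from the annotation after their values were seen. Members and lists were chosen with earlier results of these data known. One hexamer match is not reported here.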

Additional observations from a re-analysis of the deposited data

Results flagged for a closer look

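PINK1 differed between the mutants, with a log2 fold change of 0.197 in G245S against R273H (adjusted p = 0.0241 in edgeR's quasi-likelihood test) and every G245S dish above every R273H dish. It was the only 1 of the 10 genes for which that direct comparison passed the threshold, and the call was lost with the length and GC trend removed (0.149, adjusted p = 0.0745), under DESeq2 (adjusted p = 0.0561) and without any 1 of 5 dishes. With dish number as a block the call was kept (adjusted p = 0.00793), but not with the trend removed as well (0.0509).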

How the results depend on the processing

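RLE scaling, both other filters and fits of only the libraries compared kept the direction and call of each of the 30 changes of the 10 genes. DESeq2 lost 4 calls, glmTreat lost 13, and removing the length and GC trend lost 2 and gained 2. Tested for a fold change beyond 1.2, members called were 1 in G245S and 0 in R273H, and pathway genes 1 and 1. The call between mutants (1) became 0 with the trend removed, with it removed and the replicate block, with glmTreat and with DESeq2, and was 0 to 1 without a dish. Leaving out a dish gave 4 to 6 called members in G245S and 5 to 8 in R273H, 5 without R273H dish 1, and 0 to 4 pathway genes between mutants, 2 without WT dish 3 and 4 without G245S dish 3. That count was 0 as reported, 1 with upper-quartile scaling, 2 without a filter, 2 with a mean count of at least 100, 2 with 6 libraries, 1 with the trend removed and 1 with the block added. The labels do not tie dish numbers to a shared batch, and not every pairing of same-numbered dishes had deviations correlated above 0.1 (0.0419 to 0.228, against -0.183 to 0.058 for different numbers), so the block was kept as an alternative, although the same-numbered values were all positive. With dish number as a block, 7 members were called in G245S against WT, and 7 pathway genes between mutants. Between mutants, uncalled signs turned with the trend removed, without and with the block, for OPA1 (0.045 and 0.046), DNM1L (0.001 and 0.001), FIS1 (-0.016 and -0.015), MIEF1 (-0.002 and -0.002) and MIEF2 (-0.034 and -0.03), without G245S dish 1 for OPA1 (0.014), FIS1 (-0.013) and BNIP3L (0.009), and without G245S dish 2 or R273H dish 3 for MIEF2. Leaving out a dish gave -0.031 to 0.014 for OPA1, -0.013 to 0.048 for FIS1, -0.091 to 0.009 for BNIP3L and -0.063 to 0.138 for MIEF2. The cause of these shifts was not tested. Over all genes, DESeq2 called 3564 and 4056 against WT, where edgeR called 4900 and 5707, and glmTreat 547 and 693. The block called 1262 between mutants, where 513 were reported.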
